A study of Mus musculus with 12 samples.

Results

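The 40 genes described here act in the G2 phase and in mitosis, the division of the chromosomes. They were chosen by name as known cell cycle genes, at a time when earlier results of these data were known. The counts below are therefore not those of a set fixed before the data were seen. All 40 were found among the 24411 genes listed in the deposited tables and among the 13755 genes with enough counts to be tested. RNA was sequenced from bone marrow cells that lacked lineage markers and carried cKit, which selects stem cells and progenitors of the blood. The marrow was taken from femora and tibiae of C57BL/6 mice, and each of 4 donor genotypes had 3 libraries. Double donors carried the Mx1-Cre transgene, the inv(3) allele and the heterozygous splicing factor mutation Sf3b1 K700E. Inv(3) donors carried Mx1-Cre and inv(3), Sf3b1 K700E donors carried Mx1-Cre and the heterozygous mutation, and control donors carried Mx1-Cre alone. Mx1-Cre is a recombinase driven by an interferon-responsive promoter and is switched on by pIpC, a double-stranded RNA. CD45.2 donor marrow of every group was mixed with wild-type CD45.1 support marrow and given to lethally irradiated CD45.1 recipients. All recipients received 3 doses of pIpC at 20 mg/kg, starting 4 weeks after the transplant, and were sampled 6 months later. The sources used here do not say whether donor cells were separated from support and recipient cells, or whether the 3 libraries of a group came from separate mice. If they did not, the p-values measure technical spread.

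Entry into mitosis is driven by the kinase CDK1 bound to cyclin A or cyclin B, activated by CDC25 phosphatases and assisted by Polo-like and Aurora kinases. Chromosomes are then compacted by condensin and topoisomerase, attached through kinetochores to a spindle shaped by kinesins, and held until the checkpoint releases the anaphase-promoting complex (APC/C), which marks cyclin B for destruction. RNAs of these genes are made mainly in late S phase, G2 and mitosis. In quiescent cells the DREAM complex represses them, and in cycling cells MuvB with MYBL2 and FOXM1 activates them, through promoter elements named CHR (consensus TTTGAA) and CCAAT.

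Library totals ran from 73074797 to 86555638 expected counts. Levels between libraries are given as CPM, counts scaled to library size with TMM factors, and levels between genes as TPM, which corrects for gene length. The 4 marker genes of the labelled population, Kit, Cd34, Myb and Ptprc, summed to 1979 to 2112 CPM in double, 1976 to 2009 CPM in inv(3), 2017 to 2124 CPM in Sf3b1 K700E and 2057 to 2144 CPM in control libraries. Within this sum the Cd34 levels of the 4 groups did not overlap, with 222 ± 45.3 CPM in double, 130.4 ± 36.8 CPM in inv(3), 379.7 ± 14.8 CPM in Sf3b1 K700E and 295 ± 18.3 CPM in control libraries (SD, n = 3 each). The 5 matched lineage markers summed to 259 to 309 CPM in double, 333 to 382 CPM in inv(3), 112 to 171 CPM in Sf3b1 K700E and 171 to 209.8 CPM in control libraries. Most of that was Itgam, a myeloid gene, at 291 ± 28.4 CPM in double, 357 ± 25.0 CPM in inv(3), 133 ± 29.4 CPM in Sf3b1 K700E and 183 ± 19.1 CPM in control libraries, so RNA of this lineage marker was present. Cd3e, a T cell gene of the same list, was at 0 in all control libraries and reached 0.129 CPM at most. The inv(3) libraries stood apart in sex-linked RNA, with 4 to 8 counts of 4 Y-linked genes, against 19200 to 25380 in the other 9 libraries. Xist, also sex-linked, had 2095, 1966 and 1794 CPM in inv(3) and 191, 210 and 77.1 CPM in Sf3b1 K700E libraries. It had 23.2, 40.5 and 27.5 CPM in double and 34.7, 24.0 and 39.9 CPM in control libraries. The Sf3b1 K700E libraries thus lay above the double and control libraries in Xist, and the source of this RNA was not tested. In any comparison with the inv(3) or Sf3b1 K700E group, the difference in sex-linked RNA and that in genotype cannot be told apart. Mecom, the mouse gene for EVI1, had 10.3, 8.98 and 11.2 CPM in double, 5.86, 3.65 and 4.24 CPM in inv(3), 7.12, 10.99 and 7.32 CPM in Sf3b1 K700E and 5.49, 6.59 and 6.37 CPM in control libraries. The labels do not describe how the inv(3) allele was made, and a gene count cannot show a point mutation, so neither allele is checked by these values.

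Summed over the 40 genes, the RNA of G2 and mitosis was lowest in the double group and highest in the inv(3) group. The sum was 5022, 5257 and 4788 CPM in double libraries, 6035, 5994 and 6134 CPM in inv(3) libraries, 5406, 5492 and 5626 CPM in Sf3b1 K700E libraries and 5948, 5665 and 5646 CPM in control libraries. All 3 double libraries lay below all 9 others, and all 3 inv(3) libraries lay above the other 9. The double mean was 5022 ± 235 CPM (SD, n = 3), which is 83.0% of the inv(3) mean of 6054 ± 71.7 CPM, 91.2% of the Sf3b1 K700E mean of 5508 ± 111 CPM and 87.3% of the control mean of 5753 ± 169 CPM (SD, n = 3 each). Scaled by library totals alone, a setting added after the data were seen, the sum averaged 4956 CPM in double, 5800 CPM in inv(3), 5774 CPM in Sf3b1 K700E and 5802 CPM in control libraries. On that scale the double libraries still lay below all others, and the other 3 groups overlapped. In RNA from many cells, fewer cells in G2 or mitosis and less of these RNAs in each such cell cannot be told apart.

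**Figure D1:**
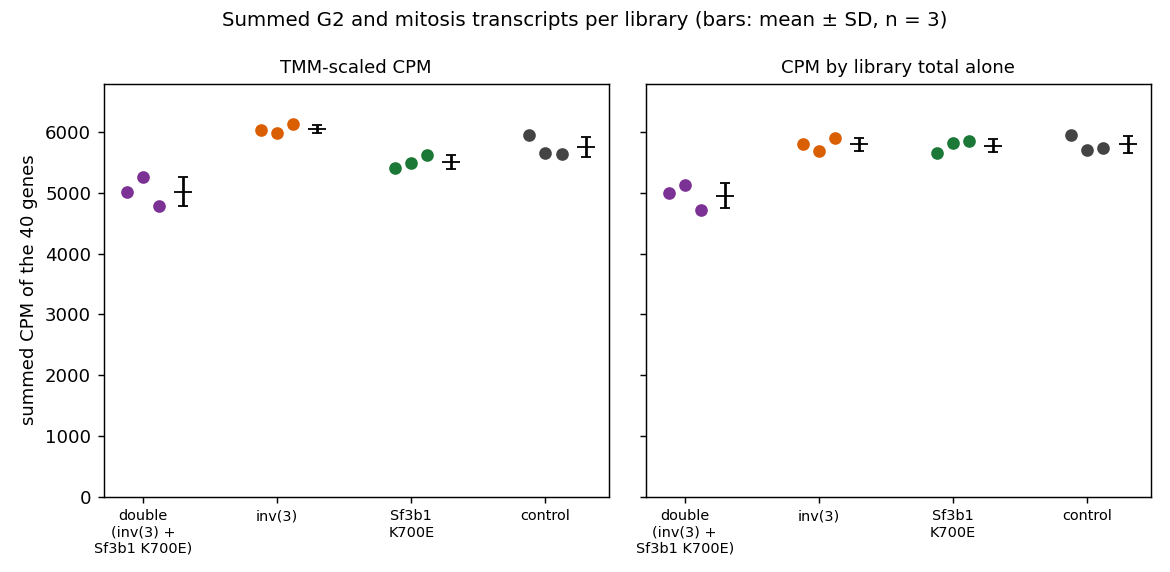
Summed CPM by library in the double, inv(3), Sf3b1 K700E and control groups (3 libraries each), scaled with TMM factors (left) or by library totals alone (right), with points for libraries and bars for the mean ± SD. The double libraries, at 4788 to 5257 CPM with TMM factors, lie below all others on both scales.

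By member, the double group had the lowest mean CPM of the 4 groups in 34 of the 40 genes and the inv(3) group the highest in 31. The full order double, Sf3b1 K700E, control and inv(3), from low to high, held in 25 genes. Within the double group, replicate 3 was the lowest of the 3 libraries in 38 genes and replicate 2 the highest in 34. Per length, the levels spanned a wide range. In control libraries Top2a, the topoisomerase that untangles chromosomes, was the highest at 240 ± 8.12 TPM, and Cdc25b, a phosphatase that activates CDK1, was the lowest at 13.6 ± 0.795 TPM (SD, n = 3). The median member had 52.3 TPM in double, 64.9 TPM in inv(3), 59.1 TPM in Sf3b1 K700E and 61.2 TPM in control libraries.

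Among regulators of mitotic entry, Ccnb1, the cyclin B that carries CDK1 into mitosis, had 101, 109 and 95.3 CPM in double, 122, 131 and 138 CPM in inv(3), 119, 124 and 122 CPM in Sf3b1 K700E and 136, 127 and 127 CPM in control libraries. Every double library was below every other library, and the inv(3) range overlapped those of Sf3b1 K700E and control. Cdk1 had 118, 132 and 115 CPM in double, 144, 151 and 156 CPM in inv(3), 129, 136 and 137 CPM in Sf3b1 K700E and 144, 133 and 133 CPM in control libraries. Here double replicate 2 lay within the Sf3b1 K700E range, so these groups overlapped. Plk1, the Polo-like kinase, had 66.6, 65.0 and 55.2 CPM in double, 85.4, 102 and 84.8 CPM in inv(3), 68.8, 56.6 and 58.3 CPM in Sf3b1 K700E and 67.6, 75.0 and 77.2 CPM in control libraries. Its inv(3) libraries were above all others, and its double and Sf3b1 K700E libraries overlapped. Aurkb, the kinase of the chromosomal passenger complex, had 96.6, 99.5 and 87.9 CPM in double, 117, 124 and 121 CPM in inv(3), 104, 97.3 and 97.7 CPM in Sf3b1 K700E and 109, 117 and 118 CPM in control libraries. The double and Sf3b1 K700E libraries overlapped, and both groups were below all control libraries.

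For mitotic exit, Cdc20, an activator of APC/C, had 86.3, 85.3 and 76.6 CPM in double, 96.8, 107 and 106 CPM in inv(3), 98.2, 87.1 and 85.5 CPM in Sf3b1 K700E and 92.1, 98.7 and 101 CPM in control libraries. The double libraries lay below all inv(3) and control libraries and overlapped the Sf3b1 K700E libraries. Ube2c, the ubiquitin-conjugating enzyme of APC/C, had 70.6, 77.1 and 66.5 CPM in double, 89.4, 111 and 100.03 CPM in inv(3), 69.0, 66.7 and 67.1 CPM in Sf3b1 K700E and 77.2, 78.2 and 80.0 CPM in control libraries. Like Plk1, it was highest in all 3 inv(3) libraries. Of the chromosome proteins, Top2a had 638, 678 and 623 CPM in double, 730.2, 699 and 744 CPM in inv(3), 707, 726 and 747 CPM in Sf3b1 K700E and 722, 679 and 700.2 CPM in control libraries. The highest double library, replicate 2, lay just under the lowest control library, and the double libraries were below all inv(3) and Sf3b1 K700E libraries. Mki67, which coats mitotic chromosomes and is the Ki-67 proliferation marker, had 852, 883 and 810.3 CPM in double, 1081, 954 and 992 CPM in inv(3), 905, 901 and 994 CPM in Sf3b1 K700E and 1055, 983 and 958 CPM in control libraries. All double libraries were below all others for Mki67.

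**Figure D2:**
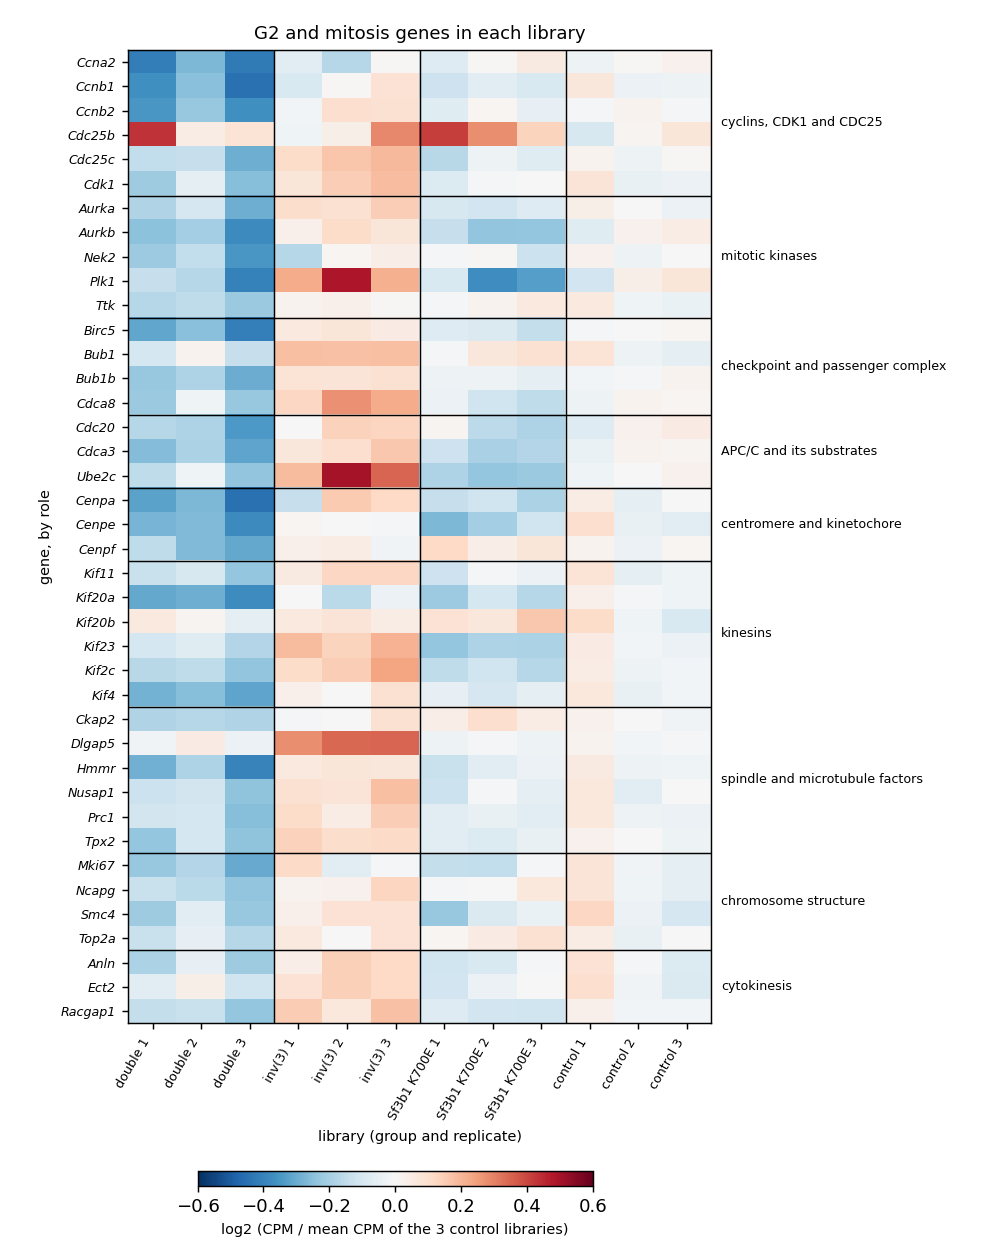
CPM of each of the 40 genes in each of the 12 libraries, as log2 of the ratio to the mean of the 3 control libraries, with genes grouped by role and libraries by group. The double columns are mostly blue (lower) and the inv(3) columns mostly red (higher), with Cdc25b among the exceptions in the double columns.

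By genotype, double and inv(3) donors differed in Sf3b1 K700E. Their libraries also differed in Y-linked RNA and Xist, so a change with the mutation cannot be told apart from that difference here. With edgeR's quasi-likelihood test, adjusted by Benjamini-Hochberg over all tested genes, 37 of the 40 genes fell and none rose at an adjusted p under 0.05. Over all tested genes 22.6% were called, 13.4% higher and 9.13% lower. At an unadjusted p under 0.05 the count was 38. The median log2 change of the 40 genes was -0.30, a fall of 18.9%, against 0.0025 over all tested genes. In 37 genes all double libraries were below all inv(3) libraries, against 17.6% of tested genes, and in none all above, against 21.9%. The median change by role ran from -0.24 in the 4 chromosome structure genes to -0.36 in the 3 APC/C genes.

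Plk1 had the largest fall, with a log2 change of -0.55 ± 0.10 (SE, adjusted p = 0.0042), and Ube2c fell by 0.49 ± 0.071 (adjusted p = 0.0014) on the log2 scale. Cenpa, the histone variant that marks centromeres, had 58.7, 60.7 and 53.6 CPM in double and 66.4, 81.7 and 79.4 CPM in inv(3) libraries. Its log2 change was -0.39 ± 0.072 (adjusted p = 0.0039), with no overlap between the groups. Birc5, survivin, which targets the passenger complex to chromosomes, had 72.1, 75.2 and 67.4 CPM in double and 93.3, 94.3 and 92.8 CPM in inv(3) libraries. It fell by 0.38 ± 0.041 (adjusted p = 4.4e-04) on the log2 scale, the smallest p among the 40 genes. Of the 3 genes that did not pass, Ect2, an exchange factor needed for cytokinesis, had 97.5, 105 and 94.1 CPM in double and 109, 113 and 111 CPM in inv(3) libraries, with a log2 change of -0.17 ± 0.056 (adjusted p = 0.051). Cdc25b had 30.6, 23.4 and 24.0 CPM in double and 22.3, 23.2 and 27.7 CPM in inv(3) libraries, with a log2 change of 0.092 ± 0.12 (adjusted p = 0.61). Kif20b, a kinesin of late mitosis, had 97.3, 94.5 and 89.6 CPM in double and 97.3, 98.5 and 96.2 CPM in inv(3) libraries, with a log2 change of -0.053 ± 0.052 (adjusted p = 0.50). Nek2, a kinase of centrosome separation, passed narrowly with overlapping groups, at an adjusted p of 0.0498.

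Under 21 alternatives 32 to 38 of the 40 genes passed, all of them lower, and 32 genes passed in every one. Sums of marker genes of other cell types also differed between these groups. The 11 matched mature neutrophil markers summed to 2762 to 3969 CPM in double and 4674 to 5740 CPM in inv(3) libraries. Most of that difference was S100a8 and S100a9. Their means were 1624 and 1266 CPM in double and 2323 and 2058 CPM in inv(3) libraries. Camp and Ngp also had lower means in double libraries, and every other mature neutrophil marker a higher one. By edgeR's test 1 of the 11 rose and 1 fell, with a median log2 change of 0.26. The 7 primary granule markers summed to 30450 to 35073 CPM in double and 40766 to 42120 CPM in inv(3) libraries. The 10 quiescent stem cell markers summed to 62.3 to 82.5 CPM in double and 31.2 to 38.8 CPM in inv(3) libraries. Of these, Cdkn1c, Fgd5 and Hoxb5 had lower means in double libraries and the others higher ones. The part of these cell types in the result was not tested.

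**Figure D3:**
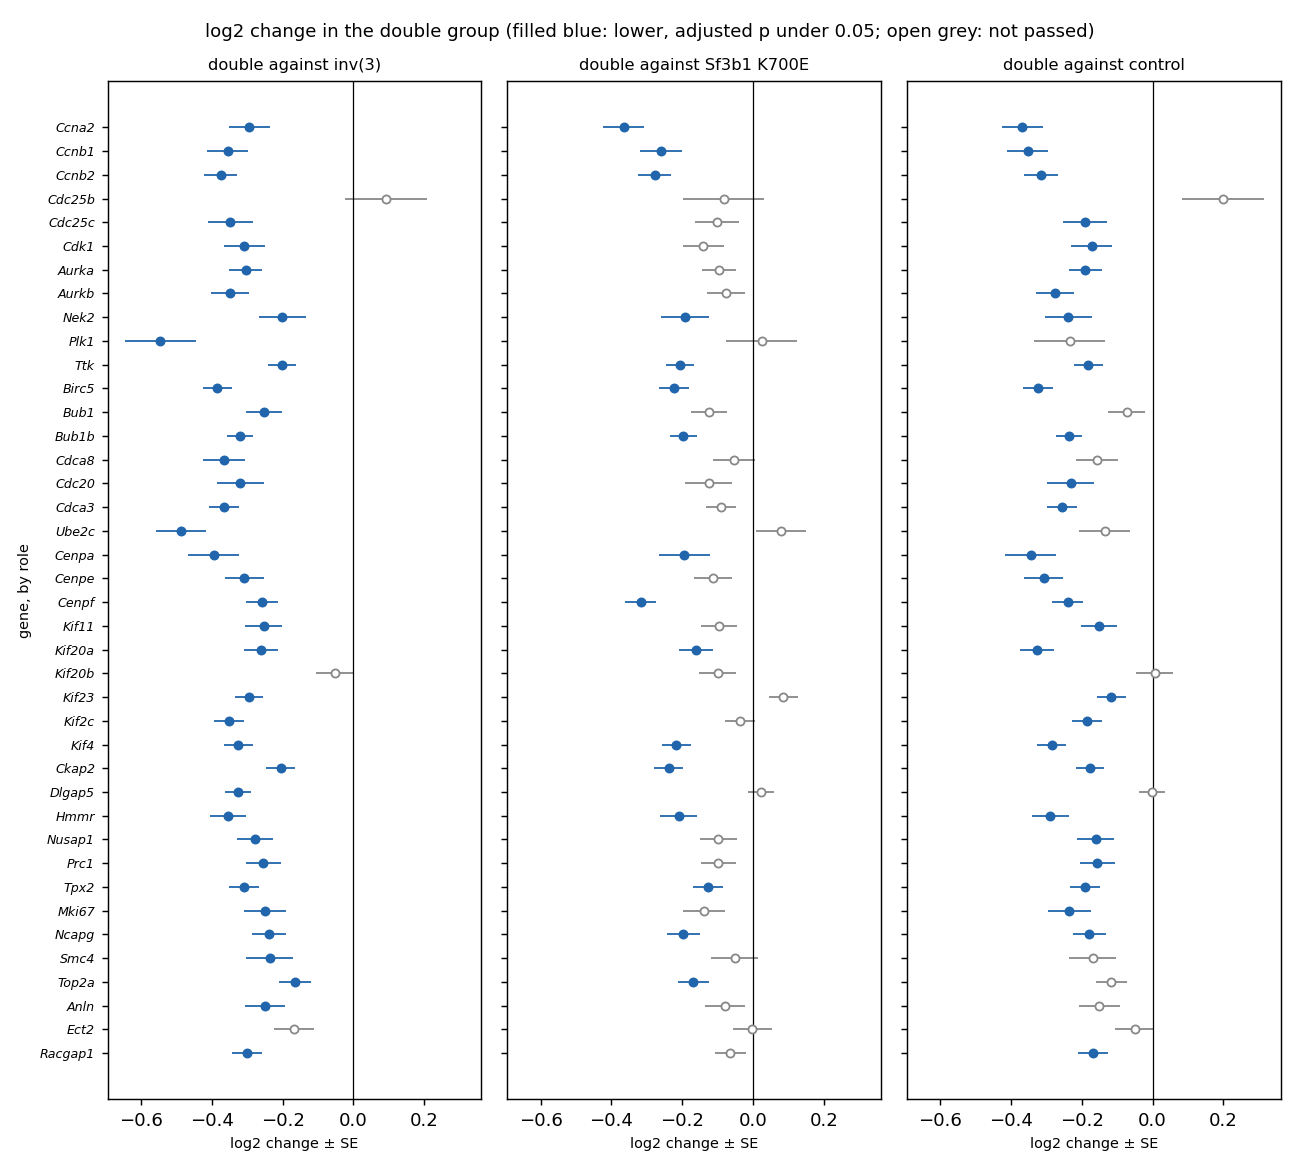
Log2 change with its standard error for each of the 40 genes in double libraries against inv(3), Sf3b1 K700E and control libraries (3 each). Filled blue points, lower at an adjusted p under 0.05, number 37 against inv(3), 16 against Sf3b1 K700E and 29 against control.

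Since these genes fell together, promoters are shown for the falls of Plk1, Ube2c, Ccnb1, Ccnb2 and Cenpa. Those of Cdc25b and Kif20b, which did not pass, are shown too. This set was chosen by hand. It leaves out Birc5, which fell more than Ccnb1 and Ccnb2 and whose window held neither motif. The sequences are from RefSeq on GRCm38.p6 and run 5′ to 3′ on the gene's strand from 250 bases before to 50 bases after the listed start. They lie at chr7:122159185-122159484 on the plus strand (Plk1), chr2:164769679-164769978 on the plus strand (Ube2c), chr13:100786437-100786736 on the minus strand (Ccnb1), chr9:70421505-70421804 on the minus strand (Ccnb2), chr5:30666636-30666935 on the plus strand (Cenpa), chr2:131186698-131186997 on the plus strand (Cdc25b) and chr19:34922108-34922407 on the plus strand (Kif20b). Capitals mark TTTGAA and CCAAT read on either strand, so TTCAAA and ATTGG are marked too.
Plk1: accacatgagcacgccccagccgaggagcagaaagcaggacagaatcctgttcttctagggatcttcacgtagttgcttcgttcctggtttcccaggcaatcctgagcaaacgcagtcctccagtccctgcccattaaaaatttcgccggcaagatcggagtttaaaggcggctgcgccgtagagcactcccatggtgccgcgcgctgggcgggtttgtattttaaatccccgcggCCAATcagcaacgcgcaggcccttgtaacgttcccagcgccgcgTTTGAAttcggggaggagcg
Ube2c: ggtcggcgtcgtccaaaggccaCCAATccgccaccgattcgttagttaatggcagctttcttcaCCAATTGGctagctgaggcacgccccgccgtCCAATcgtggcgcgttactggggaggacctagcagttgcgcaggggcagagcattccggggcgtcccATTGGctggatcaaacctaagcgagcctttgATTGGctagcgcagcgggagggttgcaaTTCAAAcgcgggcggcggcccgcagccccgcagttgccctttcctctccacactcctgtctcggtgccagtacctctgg
Ccnb1: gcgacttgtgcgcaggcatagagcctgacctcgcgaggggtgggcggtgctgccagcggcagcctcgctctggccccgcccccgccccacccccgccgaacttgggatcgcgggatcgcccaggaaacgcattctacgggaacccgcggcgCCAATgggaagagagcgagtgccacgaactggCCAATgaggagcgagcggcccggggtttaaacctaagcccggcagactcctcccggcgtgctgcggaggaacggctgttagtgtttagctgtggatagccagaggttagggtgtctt
Ccnb2: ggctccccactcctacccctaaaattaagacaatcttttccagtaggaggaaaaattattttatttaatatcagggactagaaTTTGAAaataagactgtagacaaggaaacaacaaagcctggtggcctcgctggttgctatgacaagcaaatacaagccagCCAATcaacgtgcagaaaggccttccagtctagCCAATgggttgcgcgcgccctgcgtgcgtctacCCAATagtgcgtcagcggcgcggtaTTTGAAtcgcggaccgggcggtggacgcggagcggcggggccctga
Cenpa: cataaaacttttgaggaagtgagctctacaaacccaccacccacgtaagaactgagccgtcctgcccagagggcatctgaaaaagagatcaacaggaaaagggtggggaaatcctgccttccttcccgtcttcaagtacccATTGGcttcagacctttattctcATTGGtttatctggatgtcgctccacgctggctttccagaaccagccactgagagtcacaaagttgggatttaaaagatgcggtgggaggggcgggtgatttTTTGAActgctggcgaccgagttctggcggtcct
Cdc25b: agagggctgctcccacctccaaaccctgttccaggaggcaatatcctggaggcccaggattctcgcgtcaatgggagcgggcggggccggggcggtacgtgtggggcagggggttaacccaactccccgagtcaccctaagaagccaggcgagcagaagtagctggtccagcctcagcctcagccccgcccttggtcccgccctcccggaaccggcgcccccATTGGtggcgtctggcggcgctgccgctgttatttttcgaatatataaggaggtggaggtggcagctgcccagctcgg
Kif20b: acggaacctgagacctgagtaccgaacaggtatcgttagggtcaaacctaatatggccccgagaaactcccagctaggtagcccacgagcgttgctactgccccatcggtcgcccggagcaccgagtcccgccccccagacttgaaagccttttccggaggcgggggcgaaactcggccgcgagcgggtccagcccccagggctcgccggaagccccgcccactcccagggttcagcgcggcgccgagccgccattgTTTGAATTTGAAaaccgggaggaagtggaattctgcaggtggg
The Plk1, Ube2c, Ccnb2 and Cenpa windows hold both motifs, with a TTTGAA near the start and CCAAT upstream of it. The Ccnb1 window holds CCAAT and no TTTGAA, the Cdc25b window 1 CCAAT only, and the Kif20b window adjoining copies of TTTGAA with no CCAAT.

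Of the 40 genes, 33 had an entry in the RefSeq table and Ccna2, Cdc25c, Aurkb, Tpx2, Kif20a, Dlgap5 and Smc4 had none. TTTGAA was in 26 of the 33 windows (78.8%), against 18.1% of the 27025 genes with an entry and 12.1% of the 10404 tested genes with one. It was within 50 bases of the start in 69.7% of the members' windows and in 2.99% of those of tested genes. CCAAT was in 28 windows (84.8%), against 38.7% of tested genes, and both motifs were in 69.7%, against 5.02% of tested genes. In the members' windows 1 TTTGAA match overlapped a CCAAT match. The windows of Birc5 and Nusap1, a spindle protein, held neither, and both genes fell in double against inv(3) libraries. The median log2 change in that comparison was -0.30 in the 26 genes with TTTGAA and -0.28 in the 7 without. The members were chosen as known cell cycle genes, a class already described with these elements. The shares therefore follow from that choice and are not a result of the libraries. A match describes these letters in this window and is not evidence of binding.

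Against control libraries, the double group shows the change with both alleles together. With edgeR's test 29 of the 40 genes fell and none rose, where 41.1% of all tested genes were called, 20.8% higher and 20.4% lower. At an unadjusted p under 0.05 the count was 34. The median log2 change of the 40 genes was -0.19, a fall of 12.2%, against 0.0024 over all tested genes. In 32 genes the double libraries were all below the control libraries, against 27.5% of tested genes, and in none all above, against 27.3%. Ccna2, cyclin A2, had 133, 147 and 132 CPM in double and 174, 179 and 180.4 CPM in control libraries, with the largest log2 change at -0.37 ± 0.058 (adjusted p = 3.5e-04). Ccnb1 fell by 0.35 ± 0.059 (adjusted p = 5.6e-04) and Cenpa by 0.34 ± 0.072 (adjusted p = 0.0026) on the log2 scale, and the 3 Cenpa values in control libraries were 75.5, 70.6 and 73.4 CPM. Kif20a, a kinesin of cytokinesis, had 89.1, 90.1 and 85.1 CPM in double and 113, 109.9 and 108 CPM in control libraries, with a log2 change of -0.33 ± 0.048 (adjusted p = 2.3e-04).

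By role, 5 of the 6 genes of the cyclin, CDK1 and CDC25 group, all 3 centromere genes, 4 of 5 mitotic kinases and 5 of 6 kinesins fell in double against control libraries. Of the 3 cytokinesis genes 1 fell, and of the 4 chromosome structure genes 2 did. Dlgap5, which stabilizes spindle fibres at kinetochores, had 60.02, 63.1 and 59.4 CPM in double and 61.8, 60.3 and 60.7 CPM in control libraries, with a log2 change of -0.0024 (adjusted p = 0.97). Plk1 and Ube2c, the genes with the largest falls against inv(3), had log2 changes of -0.23 ± 0.10 (adjusted p = 0.084) and -0.14 ± 0.071 (adjusted p = 0.15) here. The alternatives gave 21 to 34 calls, and 21 of the 29 genes passed in every one. Erythroid markers summed to 368 to 425 CPM in double and 902 to 977 CPM in control libraries. Macrophage markers summed to 69.3 to 90.1 CPM in double and 351 to 439 CPM in control libraries. Most of that difference was Vcam1, at 38.7 ± 6.38 CPM in double and 313 ± 62.6 CPM in control libraries (SD, n = 3 each). Adgre1 had a mean of 12.3 CPM in both groups, and every other macrophage marker had a lower mean in double libraries. Mature neutrophil markers summed to 2762 to 3969 CPM in double and 1429 to 2109 CPM in control libraries. The 10 quiescent stem cell markers summed to 62.3 to 82.5 CPM in double and 94.6 to 118 CPM in control libraries, and mast cell and basophil markers to 189 to 225 CPM in double and 599.8 to 636 CPM in control libraries. Against these sums, Cdkn1c, Mecom, Procr and Slamf1 of the stem cell list had higher means in double libraries. So did Gata2 and Fcer1a of the mast cell and basophil list and Hbb-b1 of the erythroid list. Mmp8 of the neutrophil list had a lower mean. The other markers of these lists followed their sums. The part of these cell types in the result was not tested.

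Set against Sf3b1 K700E libraries, the double libraries differ by genotype in inv(3). They also differed in Xist, and these differences cannot be told apart. Of the 40 genes 16 fell and none rose, where 49.2% of all tested genes were called, 25.7% higher and 23.5% lower. The share of the members called lower, 16 of 40, lay nearer to that of all genes than in the other comparisons of the double group. At an unadjusted p under 0.05 the count was 19, and the median log2 change was -0.12, against 0.025 over all tested genes. The median was -0.077 without double replicate 3, and by library totals alone it was -0.21, against -0.062 over all tested genes. In 20 genes the double libraries were all below the Sf3b1 K700E libraries, against 28% of tested genes, and in 1 gene, Kif23, all above, against 29.6%. Ccna2 had the largest fall, with a log2 change of -0.36 ± 0.058 (adjusted p = 2.9e-04) and 168, 179 and 184 CPM in Sf3b1 K700E libraries. Cenpf, a kinetochore protein of G2 and mitosis, had 83.8, 77.7 and 75.4 CPM in double and 101, 95.99 and 98.0 CPM in Sf3b1 K700E libraries, with a log2 change of -0.32 ± 0.044 (adjusted p = 1.1e-04). Ccnb2, the other B-type cyclin, had 76.0, 82.7 and 75.1 CPM in double and 92.2, 97.6 and 93.7 CPM in Sf3b1 K700E libraries, with a log2 change of -0.28 ± 0.047 (adjusted p = 4.6e-04). Ccnb1 fell by 0.26 ± 0.059 (adjusted p = 0.0033) on the log2 scale.

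None of the 3 APC/C genes and none of the 3 cytokinesis genes passed in double against Sf3b1 K700E libraries. The count depended on scaling and filter, with 32 genes lower by library totals alone and 26 when a mean of at least 5 CPM was required. Primary granule markers summed to 30450 to 35073 CPM in double and 21064 to 25965 CPM in Sf3b1 K700E libraries. Erythroid markers summed to 368 to 425 CPM in double and 1089 to 1202 CPM in Sf3b1 K700E libraries, and mast cell and basophil markers to 189 to 225 CPM in double and 633 to 704 CPM in Sf3b1 K700E libraries. Quiescent stem cell markers summed to 62.3 to 82.5 CPM in double and 131 to 188 CPM in Sf3b1 K700E libraries, and macrophage markers to 69.3 to 90.1 CPM in double and 465 to 635 CPM in Sf3b1 K700E libraries. Mature neutrophil markers summed to 2762 to 3969 CPM in double and 1206 to 2247 CPM in Sf3b1 K700E libraries. Camp, Ngp and Mmp8 of this list had lower means in double libraries, and Mecom and Cdkn1c of the stem cell list higher ones. The other markers of these lists followed their sums. The part of these cell types in the result was not tested.

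With inv(3) alone against control, 9 of the 40 genes rose and none fell, where 38.7% of all tested genes were called, 18.4% higher and 20.3% lower. The count at an unadjusted p under 0.05 was 15. The share called was no larger among the members than among all genes, and the median log2 change was 0.086, against 0.0034 over all tested genes. All inv(3) libraries were above all control libraries in 16 genes, against 24.9% of tested genes, and below them in none, against 26.9%. Ube2c rose by 0.35 ± 0.071 (adjusted p = 0.0022) and Plk1 by 0.31 ± 0.10 (adjusted p = 0.029) on the log2 scale. Dlgap5 had 73.8, 77.3 and 77.7 CPM in inv(3) and 61.8, 60.3 and 60.7 CPM in control libraries, with a log2 change of 0.32 ± 0.037 (adjusted p = 4.3e-05). Cdca8, borealin of the passenger complex, had 120.4, 134 and 129 CPM in inv(3) and 108, 112 and 111 CPM in control libraries, with a log2 change of 0.21 ± 0.060 (adjusted p = 0.016). The other 5 were the checkpoint kinase Bub1, the spindle factor Tpx2, the kinesins Kif2c and Kif23 and Racgap1, the partner of Kif23 in cytokinesis.

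This comparison of inv(3) with control was sensitive to scaling. By library totals alone the median log2 change was 0.012 and 3 genes passed, Ube2c and Dlgap5 higher and Kif20a lower, and Ube2c and Dlgap5 were the 2 that passed under every alternative. Without control replicate 2, 5 genes passed. Mature neutrophil markers summed to 4674 to 5740 CPM in inv(3) and 1429 to 2109 CPM in control libraries, and erythroid markers to 334 to 468 CPM in inv(3) and 902 to 977 CPM in control libraries. Quiescent stem cell markers summed to 31.2 to 38.8 CPM in inv(3) and 94.6 to 118 CPM in control libraries. Macrophage markers summed to 85.7 to 129.7 CPM in inv(3) and 351 to 439 CPM in control libraries. Most of that difference was Vcam1, at 63.8 ± 17.0 CPM in inv(3) and 313 ± 62.6 CPM in control libraries (SD, n = 3 each). Adgre1 had a higher mean in inv(3) libraries, and every other macrophage marker a lower one. Mast cell and basophil markers summed to 202 to 235 CPM in inv(3) and 599.8 to 636 CPM in control libraries. Primary granule markers summed to 40766 to 42120 CPM in inv(3) and 33253 to 36286 CPM in control libraries. Besides Adgre1, Hbb-b1 of the erythroid list and Cdkn1c of the stem cell list had higher means in inv(3) libraries, against their sums. Mmp8 of the neutrophil list had a lower mean. The other markers of these lists followed their sums. The part of these cell types in the result was not tested.

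For Sf3b1 K700E alone against control, 4 of the 40 genes fell and none rose, where 8.84% of all tested genes were called, 3.94% higher and 4.9% lower. The count at an unadjusted p under 0.05 was 11, and the median log2 change was -0.070, against -0.0053 over all tested genes. All of the 11 fell except Cdc25b, which rose by 0.28 ± 0.12 on the log2 scale (adjusted p = 0.15). All Sf3b1 K700E libraries were below all control libraries in 18 genes, against 15.8% of tested genes, and above them in 3, against 17.7%. Kif23, the motor of the central spindle, had 72.3, 74.9 and 74.5 CPM in Sf3b1 K700E and 87.9, 84.1 and 83.0 CPM in control libraries, with a log2 change of -0.20 ± 0.040 (adjusted p = 0.014). Aurkb fell by 0.20 ± 0.054 (adjusted p = 0.039) on the log2 scale. Cenpe, the kinetochore kinesin, had 107, 112 and 119 CPM in Sf3b1 K700E and 139, 125 and 124 CPM in control libraries, with a log2 change of -0.20 ± 0.055 (adjusted p = 0.047). Cdca3, a substrate of APC/C, had 78.6, 75.0 and 76.0 CPM in Sf3b1 K700E and 83.3, 87.1 and 86.7 CPM in control libraries, with a log2 change of -0.16 ± 0.043 (adjusted p = 0.036). None of the 4 passed in every alternative. The count was 1 by library totals alone, in Kif23, with a median log2 change of -0.014, and the median was -0.038 when a mean of at least 5 CPM was required. The count was 2 without control replicate 1, 0 without control replicate 2 or Sf3b1 K700E replicate 2, and 1 without control replicate 3 or Sf3b1 K700E replicate 3. Calls over all tested genes fell too, from 1216 of 13755 with all libraries. They were 600 of 13900, 214 of 13893 and 560 of 13897 without control replicates 1, 2 and 3. Without Sf3b1 K700E replicates 2 and 3 they were 168 of 13860 and 1035 of 13874. The median log2 change of the 40 genes was -0.094 without control replicate 2 and -0.058 without Sf3b1 K700E replicate 2. Macrophage markers summed to 465 to 635 CPM in Sf3b1 K700E and 351 to 439 CPM in control libraries. The largest of them, Vcam1, had 285 ± 47.7 CPM in Sf3b1 K700E and 313 ± 62.6 CPM in control libraries (SD, n = 3 each). Every other macrophage marker had a higher mean in Sf3b1 K700E libraries. Primary granule markers summed to 21064 to 25965 CPM in Sf3b1 K700E and 33253 to 36286 CPM in control libraries. Quiescent stem cell markers summed to 131 to 188 CPM in Sf3b1 K700E and 94.6 to 118 CPM in control libraries, and erythroid markers to 1089 to 1202 CPM in Sf3b1 K700E and 902 to 977 CPM in control libraries. Tfrc and Rhag of the erythroid list had lower means in Sf3b1 K700E libraries, and the other erythroid markers higher ones. The part of these cell types was not tested.

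The interaction term asks whether the change with both alleles differs from the sum of the log2 changes with each alone. The inv(3) libraries enter this term, so the alleles and the difference in sex-linked RNA cannot be told apart in it. It was negative in all 40 genes, while 54.6% of tested genes had a positive term, with a median of -0.22 on the log2 scale against 0.020 over all tested genes. The term passed in 4 members, all negative, where 0.836% of all tested genes were called, 0.4% with a positive and 0.436% with a negative term. At an unadjusted p under 0.05 the count was 29. The values were -0.34 ± 0.066 (adjusted p = 0.043) for Ccnb2, -0.34 ± 0.062 (adjusted p = 0.032) for Cenpf and -0.30 ± 0.052 (adjusted p = 0.023) for Dlgap5. Bub1b, the checkpoint protein BUBR1, had 143, 147 and 136 CPM in double, 176, 176 and 178 CPM in inv(3), 163, 163 and 161 CPM in Sf3b1 K700E and 165, 166 and 169 CPM in control libraries, with an interaction of -0.28 ± 0.053 (adjusted p = 0.034). All 3 double libraries were below the other 9 for Bub1b. None of the 4 passed in every alternative. The count was 0 without any 1 of control replicates 1, 2 or 3, inv(3) replicate 3, Sf3b1 K700E replicate 2 or double replicate 3. It was 1 without inv(3) replicate 2, Sf3b1 K700E replicate 1 or double replicate 1, and 11 without double replicate 2. DESeq2 called 20.

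**Figure D4:**
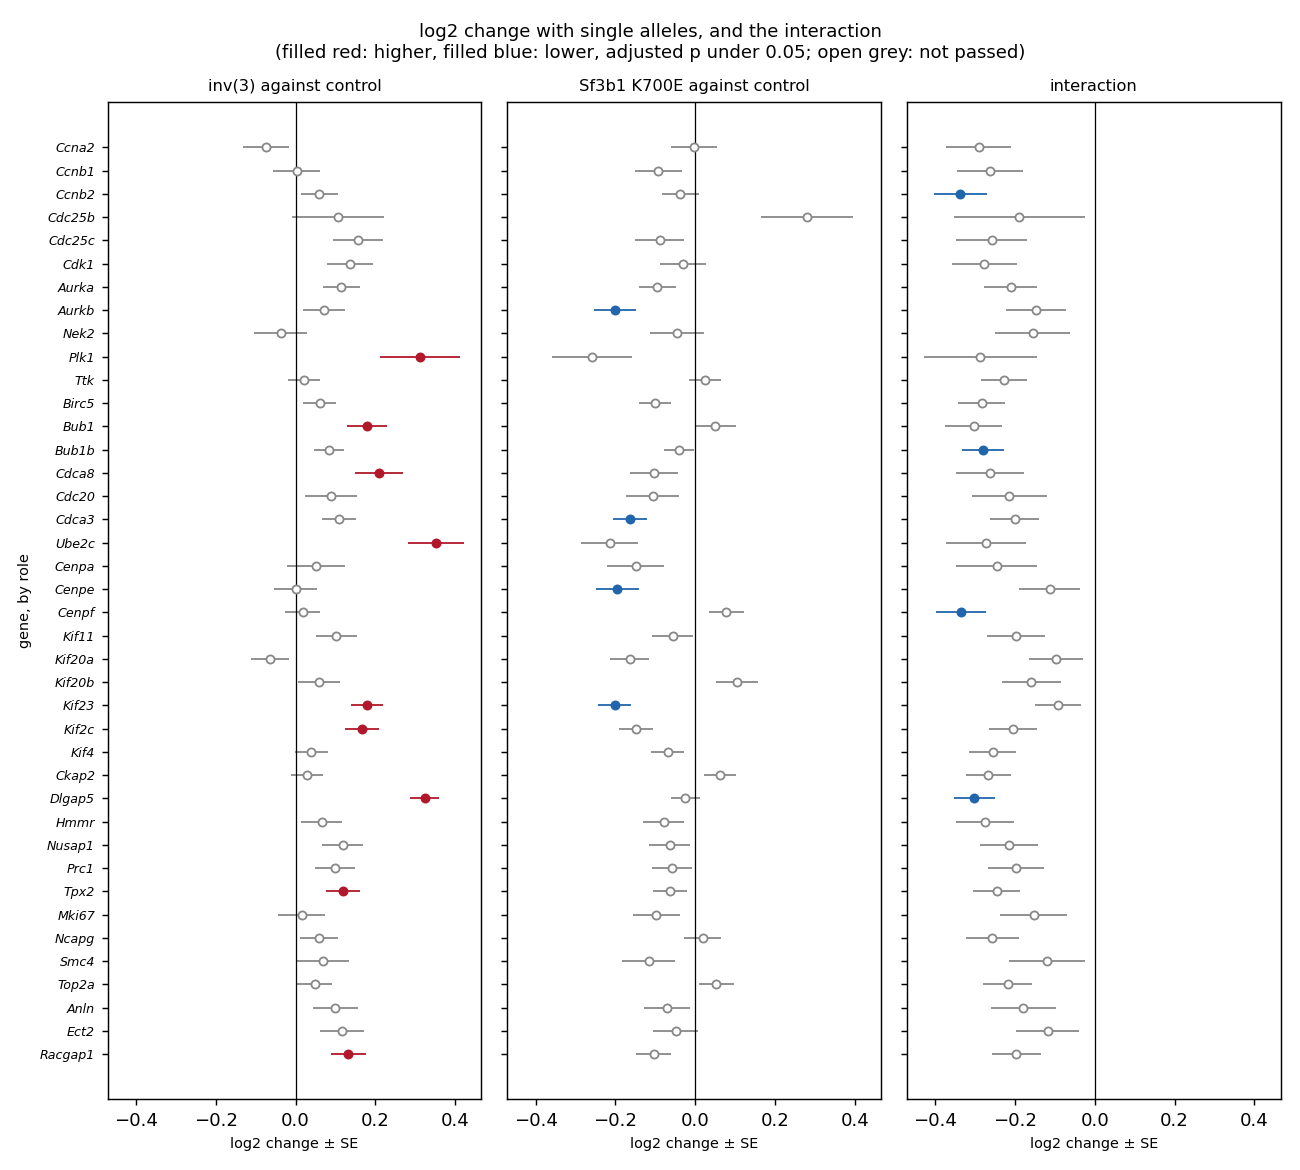
Log2 change with its standard error for each of the 40 genes in inv(3) against control and in Sf3b1 K700E against control, and the interaction of the alleles (12 libraries). Filled points passed an adjusted p of 0.05, with 9 higher with inv(3), 4 lower with Sf3b1 K700E and 4 negative interactions, and all 40 interaction values lie below 0.

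A list of 104 further mitosis genes was counted in the same way, to be read against the shares and medians over all tested genes given above. Genes are named by the smallest p in each direction, with log2 changes. In double against inv(3) libraries 59 fell and 1 rose, where 9.13% of all tested genes were called lower and 13.4% higher. The median log2 change was -0.20, and without double replicate 3 the count was 29. The smallest p-values among the falls were those of Spc25, a subunit of the kinetochore's NDC80 complex, with a log2 change of -0.50 ± 0.057 (adjusted p = 5.4e-04), Hmgb2, a chromatin protein, with -0.40 ± 0.047 (adjusted p = 5.9e-04), and Iqgap3, a scaffold protein, with -0.42 ± 0.057 (adjusted p = 9.9e-04). The gene that rose was Kif2a, a microtubule-depolymerizing kinesin, with 0.17 ± 0.054 (adjusted p = 0.044), a call lost in 13 of 21 alternatives (highest adjusted p = 0.18). In double against control libraries 48 fell and 4 rose, against 20.4% lower and 20.8% higher over all tested genes. The median was -0.13, and the count was 34 without control replicate 1 and 33 without double replicate 3. The falls were led by Zwint, a kinetochore protein, at -0.38, the spindle protein Ckap2l at -0.29 and the kinesin Kif14 at -0.32. The rises were led by Arhgef39 at 0.22, Kif2a at 0.20 and Haus5, a subunit of augmin, at 0.21. Kif2a did not pass without double replicate 3 (adjusted p = 0.054) nor Haus5 without control replicate 1 (adjusted p = 0.071). In double against Sf3b1 K700E libraries 32 fell and 8 rose, against 23.5% lower and 25.7% higher over all tested genes. The median was -0.086, and by library totals alone 59 were lower and 6 higher. The falls were led by Zwint at -0.39, Sgol1, the protector of cohesin, at -0.33 and Ckap2l at -0.27, and the rises by Haus5 at 0.45, Arhgef39 at 0.36 and Neil3, a DNA glycosylase, at 0.34. With inv(3) alone 23 of the 104 rose and 4 fell, against 18.4% higher and 20.3% lower over all tested genes, so the share that rose was near that of all genes. The median was 0.061, and by library totals alone 14 were higher and 13 lower, with a median of -0.014. The rises were led by Arhgef39 at 0.46, Iqgap3 at 0.37 and Spc25 at 0.33, and the falls by Zwint at -0.23, the APC/C subunit Anapc1 at -0.13 and Gas2l3 at -0.14. Of these falls, Gas2l3 lost its call in 13 and Anapc1 in 10 of 21 alternatives, with highest adjusted p-values of 0.18 and 0.13. With Sf3b1 K700E alone 6 of the 104 fell and 1 rose, against 4.9% lower and 3.94% higher over all tested genes, so the share that fell was near that of all genes. The median was -0.059, and by library totals alone 3 were lower and 4 higher, with a median of -0.0029. The falls were led by Iqgap3 at -0.34, Neil3 at -0.38 and the spindle kinesin Kif15 at -0.33, and Kif2a rose by 0.21. The calls of Kif2a and Kif15 were lost in 6 and 5 of 21 alternatives, with highest adjusted p-values of 0.13 and 0.089. The count for Sf3b1 K700E alone was 3 without control replicate 1, 2 without control replicate 2 or 3 or Sf3b1 K700E replicate 2, 4 on the compared groups alone and 11 by DESeq2. Calls over all tested genes fell too without each of these libraries, as given above. The interaction was negative and passed in 1 gene of the list, Spc25, against 0.436% negative and 0.4% positive calls over all tested genes. At an unadjusted p under 0.05 the count was 37, and DESeq2 called 19. Spc25 lost this call in 12 of 20 alternatives (highest adjusted p = 0.14), and without double replicate 2 the count was 9.

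S phase genes, which copy the DNA, were set beside the G2 and mitosis genes for comparison. The 68 genes summed to 9351, 9898 and 9403 CPM in double, 10154, 10005 and 10012 CPM in inv(3), 10447, 10527 and 10683 CPM in Sf3b1 K700E and 10649, 10541 and 10476 CPM in control libraries. With TMM factors the double libraries lay below all others, and the inv(3) libraries lay below the Sf3b1 K700E and control libraries. By library totals alone the S phase sum was 9321, 9674 and 9279 CPM in double, 9762, 9495 and 9647 CPM in inv(3), 10926, 11160.1 and 11105 CPM in Sf3b1 K700E and 10675, 10613 and 10646 CPM in control libraries, and the double and inv(3) libraries overlapped. With TMM factors the double mean was 94.97% of the inv(3) mean for S phase genes and 82.96% for the G2 and mitosis genes. Against control it was 90.5% for S phase and 87.3% for G2 and mitosis genes, and against Sf3b1 K700E it was 90.5% for S phase and 91.2% for G2 and mitosis genes. The G2 and mitosis sum as a percentage of the S phase sum was 53.7, 53.1 and 50.9 in double, 59.4, 59.9 and 61.3 in inv(3), 51.7, 52.2 and 52.7 in Sf3b1 K700E and 55.9, 53.7 and 53.9 in control libraries. All inv(3) libraries had a higher percentage than the other 9, and the double libraries overlapped those of Sf3b1 K700E. This percentage does not depend on scaling between libraries.

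By gene, 16 of the 68 S phase genes fell in double against inv(3) libraries and none rose, where 9.13% of all tested genes were called lower and 13.4% higher. The count was 7 without double replicate 1, 6 without double replicate 3 and 9 on the compared groups alone, and by library totals alone 10 were lower and 2 higher. The smallest p-values were those of Asf1b, a histone chaperone, at -0.40, Rrm2, a subunit of ribonucleotide reductase, at -0.36, and Ccne1, cyclin E1, at -0.33 on the log2 scale. In double against control libraries 39 fell and none rose, against 20.4% lower and 20.8% higher over all tested genes, led by Ccne1 with a log2 change of -0.61 ± 0.062 (adjusted p = 1.4e-05), Orc1 of the origin recognition complex at -0.47 and the clamp loader subunit Rfc4 at -0.36. In double against Sf3b1 K700E libraries 39 fell and none rose, against 23.5% lower and 25.7% higher over all tested genes, with Ccne1 at -0.53 and Orc1 at -0.51 among the falls. By library totals alone 56 were lower. With inv(3) alone 17 fell and 1 rose, against 20.3% lower and 18.4% higher over all tested genes. The calls were 11 without control replicate 2 and 10 without inv(3) replicate 2, and by library totals alone 37 were lower and 1 higher. The falls were led by Orc1 at -0.39, Cdca7 at -0.17 and Mcm3 of the replicative helicase at -0.17, and Asf1b rose by 0.21. With Sf3b1 K700E alone 2 fell, the DNA ligase Lig1 at -0.19 and thymidine kinase Tk1 at -0.24, and none rose, against 4.9% lower and 3.94% higher over all tested genes. Neither passed without control replicate 2, control replicate 3 or Sf3b1 K700E replicate 2, nor by library totals alone, where 5 genes were higher and none lower. The interaction was negative and passed in Asf1b alone, against 0.436% negative and 0.4% positive calls over all tested genes. Asf1b did not pass without any 1 of control replicates 1, 2 or 3 or double replicates 1 or 3 (highest adjusted p = 0.085). The count was 6 without double replicate 2 and 8 by DESeq2.

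**Figure D5:**
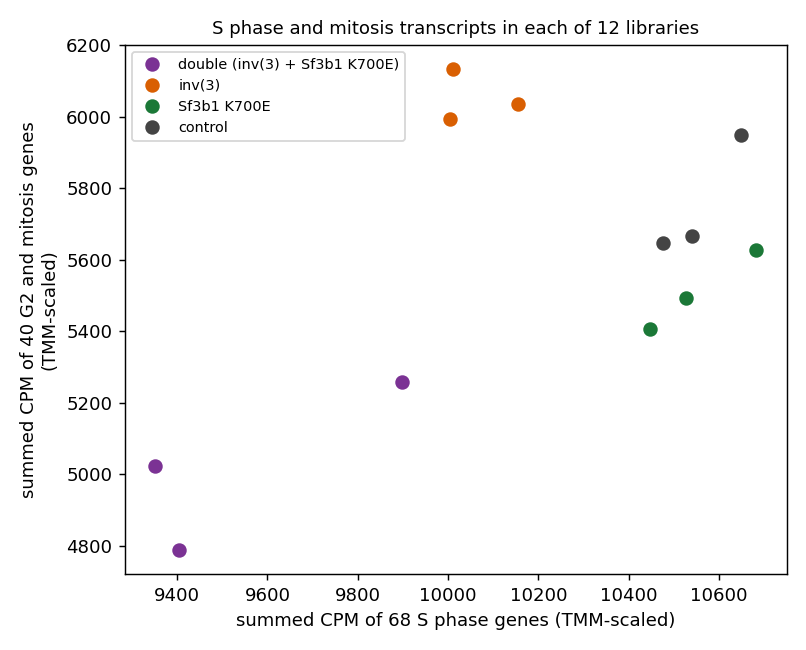
Summed CPM of the 68 S phase genes (x) and of the 40 G2 and mitosis genes (y) in each of 12 libraries, colored by group. The inv(3) libraries have more G2 and mitosis RNA for their S phase RNA than the other 9 libraries, and the double libraries have the lowest values on both axes with the TMM factors used here; by library totals alone the double and inv(3) libraries overlap on the x axis.

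Among 22 genes of DREAM, MuvB, FOXM1 and their partners, 7 fell and 3 rose in double against inv(3) libraries, where 9.13% of all tested genes were called lower and 13.4% higher. The count was 6 without double replicate 1, 5 without double replicate 3 and 5 on the compared groups alone. Foxm1, the activator of G2 and mitosis genes, had 100.3, 98.4 and 94.3 CPM in double, 120.2, 112 and 122 CPM in inv(3), 101, 88.1 and 87.7 CPM in Sf3b1 K700E and 98.5, 104 and 104 CPM in control libraries. It was highest in all inv(3) libraries, rising by 0.21 ± 0.057 (adjusted p = 0.012) in inv(3) against control and falling by 0.28 ± 0.057 (adjusted p = 0.0065) in double against inv(3), both log2. The rise did not pass without control replicate 1 or inv(3) replicate 3, nor by library totals alone (highest adjusted p = 0.087). In double against control Foxm1 did not pass, with a log2 change of -0.066 ± 0.057 (adjusted p = 0.39). Mybl2, the MYB protein that joins MuvB, had 98.0, 115 and 99.2 CPM in double, 131, 138 and 134 CPM in inv(3), 144, 124 and 134 CPM in Sf3b1 K700E and 152, 159.8 and 157 CPM in control libraries. All double libraries were below all others, and the fall against control was 0.59 ± 0.067 (adjusted p = 3.3e-05) on the log2 scale. Against inv(3) Mybl2 changed by -0.37 ± 0.067 (adjusted p = 0.0037) and against Sf3b1 K700E by -0.37 ± 0.067 (adjusted p = 7.9e-04). In inv(3) against control its log2 change was -0.22 ± 0.067 (adjusted p = 0.022), and it did not pass without any 1 of control replicates 2 or 3 or inv(3) replicates 1 or 3 (highest adjusted p = 0.068). E2f1, an activator of S phase genes, passed in none of the 6 tests, with log2 changes from 0.010 to 0.061.

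E2f7 and E2f8, repressors of E2F targets, fell in double against inv(3) libraries with log2 changes of -0.35 and -0.29, and against control with -0.31 and -0.22. Nfya, a subunit of the factor that binds CCAAT, rose in double against inv(3) by 0.18 and against control by 0.27. Myc rose by 0.35 against inv(3) and 0.51 against control, with 340.4, 283 and 293 CPM in double, 225, 270.1 and 223 CPM in inv(3) and 193, 227 and 224 CPM in control libraries. In double against inv(3) the call of Myc was lost in 10 and that of Nfya in 4 of 21 alternatives, with highest adjusted p-values of 0.15 and 0.056. Of the E2F repressors, E2f5 rose in double against inv(3) by 0.55 and E2f6 fell in double against Sf3b1 K700E by 0.32 on the log2 scale. In double against Sf3b1 K700E libraries 7 of the 22 genes fell, among them E2f2 at -0.55 and Nfyb at -0.30, and 2 rose, Nfyc at 0.13 and Tfdp2 at 0.23, against 23.5% lower and 25.7% higher over all tested genes. The calls of Nfyc and Tfdp2 were lost in 5 and 6 of 21 alternatives, with highest adjusted p-values of 0.38 and 0.14. Double against control gave 6 falls and 2 rises, against 20.4% lower and 20.8% higher over all tested genes. With inv(3) alone 3 rose, Foxm1, Nfyc at 0.12 and the MuvB subunit Lin37 at 0.30, and 3 fell, Mybl2, E2f5 at -0.35 and E2f4 at -0.19. Over all tested genes 18.4% were higher and 20.3% lower. By library totals alone none of the 22 was higher with inv(3) alone and 5 were lower, and without any 1 control library 2 were called. Lin37 and Nfyc lost their calls in 6 of 21 alternatives each, E2f4 in 5 of 21 and E2f5 in 5 of 20 (highest adjusted p-values 0.12, 0.36, 0.11 and 0.072). With Sf3b1 K700E alone 2 rose, E2f6 at 0.29 and Nfya at 0.18, and none fell, against 3.94% higher and 4.9% lower over all tested genes. Nfya lost this call in 4 of 21 alternatives (highest adjusted p = 0.083). The interaction passed in none of the 22 by edgeR's test, with 7 at an unadjusted p under 0.05 and 5 called by DESeq2.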

How the data were processed

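RNA-seq libraries of 12 marrow samples were, per the labels, unstranded and made from poly(A)-selected RNA. Per the file headers, the deposited tables have the columns of RSEM. The authors' expected counts are estimated fragments per gene, not normalized. The TPM values deposited by the authors are relative to all transcripts of a library and were used for levels between genes only. The submitters' processing notes name bcl2fastq and mm10. No source used here gives the RSEM version or the aligner.

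Expected counts were rounded, filtered with filterByExpr by group, scaled by TMM and fitted in 1 quasi-likelihood model over the 12 libraries (edgeR 4.0.16, R 4.3.3), with Benjamini-Hochberg adjustment over 13755 genes. Standard errors come from the F statistic. The code was tested on simulated data. Sums over genes have no test.

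The members and lists were chosen with earlier results of these data known. Named genes were the 8 shown in every library, the up to 4 largest rises and falls per comparison among members that passed, up to 3 genes per list and direction with the smallest p, and Foxm1, Mybl2 and E2f1. Members outside this rule (Ect2, Cdc25b, Kif20b, Nek2 and those listed as calls without values) were named after their values were seen. Motifs were searched in the first promoter listed for a gene.

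The fit was repeated with RLE scaling, without the low-count filter, with a minimum mean of 5 CPM, with DESeq2 1.42.0, on the compared groups alone, with the replicate block, with an effective-length offset, with TMM factors from genes up to 1000 CPM, and without each library in turn. Library totals alone was added after the data were seen. In unstranded libraries, reads of near-identical copies or antisense genes cannot be assigned with certainty. One S phase gene that the naming rule selects is not reported here.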

Additional observations from a re-analysis of the deposited data

Results flagged for a closer look

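The interaction term of inv(3) and Sf3b1 K700E passed in 6 of the genes named here, by edgeR's test across all genes (log2, adjusted p under 0.05). Among the members these were Ccnb2 with -0.34 ± 0.066, Cenpf with -0.34 ± 0.062, Dlgap5 with -0.30 ± 0.052 and Bub1b with -0.28 ± 0.053. From the other lists they were the kinetochore gene Spc25 with -0.39 ± 0.080 (adjusted p = 0.047) and the histone chaperone gene Asf1b with -0.44 ± 0.075 (adjusted p = 0.023). Spc25 had 29.8, 33.2 and 31.4 CPM in double, 43.8, 45.7 and 43.5 CPM in inv(3), 30.8, 34.3 and 33.3 CPM in Sf3b1 K700E and 37.0, 34.6 and 34.0 CPM in control libraries. Asf1b had 56.4, 65.9 and 59.4 CPM in double, 80.9, 81.1 and 78.4 CPM in inv(3), 69.4, 70.2 and 72.8 CPM in Sf3b1 K700E and 67.9, 71.6 and 68.1 CPM in control libraries. The inv(3) libraries of both genes were above all others, and these libraries, with 4 to 8 Y-linked counts each, enter the term. An interaction of the alleles and the difference in sex-linked RNA therefore cannot be told apart in it. No call of the 6 held in every alternative. Over 20 alternatives the call was lost in 10 for Ccnb2, Cenpf and Bub1b, in 8 for Dlgap5, in 12 for Spc25 and in 5 for Asf1b, with highest adjusted p-values of 0.13 for Ccnb2, 0.11 for Cenpf and Bub1b, 0.091 for Dlgap5, 0.14 for Spc25 and 0.085 for Asf1b. Without any 1 of the 3 control libraries none of the 6 passed.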

How the results depend on the processing

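Leaving out each library gave 5 to 11 calls among the 40 genes for inv(3) against control, 0 to 6 for Sf3b1 K700E against control, 21 to 33 for double against control, 32 to 38 for double against inv(3), 12 to 20 for double against Sf3b1 K700E and 0 to 11 for the interaction. For Sf3b1 K700E against control, calls over all tested genes ran from 168 of 13860 to 1649 of 13889 in these fits. The group mean of the summed CPM then lay between 4906 and 5138 for double, between 6035 and 6116 for inv(3), between 5479 and 5535 for Sf3b1 K700E and between 5660 and 5803 for control. By library totals alone the calls were 3 for inv(3) against control, 1 for Sf3b1 K700E against control and 32 for double against Sf3b1 K700E, and the sums averaged 5800 CPM for inv(3) and 5774 CPM for Sf3b1 K700E. That scaling lowered the share of calls that were higher over all tested genes to 31.3% for inv(3) against control, where TMM gave 47.5%, and to 35.7% for double against Sf3b1 K700E, where TMM gave 52.3%. It raised the share to 70.03% for Sf3b1 K700E against control, where TMM gave 44.6%, and to 71.9% for double against inv(3), where TMM gave 59.5%. A mean of at least 5 CPM gave 1 call for Sf3b1 K700E against control and 26 for double against Sf3b1 K700E. RLE scaling gave 2 calls for Sf3b1 K700E against control. For the interaction DESeq2 gave 20 and TMM without genes over 1000 CPM 7. The cause of these shifts was not tested.

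Of 18 same-numbered pairs of libraries, 4 had a correlation over 0.1, and in 5 of 18 cases a library correlated best with its own number. Among inv(3) libraries, each double library correlated best with that of its own number, at 0.064, 0.23 and 0.24. The labels do not say whether the numbers pair libraries, and these correlations cannot decide it. With the replicate block 1 member passed for Sf3b1 K700E against control and 1 for the interaction. E2f1, which passed nowhere, turned sign. Without 1 library its log2 change ran from -0.016 to 0.046 for Sf3b1 K700E against control, from -0.0045 to 0.040 for double against inv(3) and from -0.034 to 0.036 for the interaction. Its log2 change by library totals alone was -0.035 for inv(3) against control, -0.038 for double against Sf3b1 K700E and -0.0029 for the interaction, and the interaction was -0.0080 with RLE scaling, -0.016 with a mean of at least 5 CPM, -0.0078 with DESeq2 and -0.011 with TMM without genes over 1000 CPM. Foxm1 in double against Sf3b1 K700E was -0.0029 by library totals alone.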

Other observations

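Of 18 genes for cell cycle inhibitors and antiproliferative factors, 16 were tested. In inv(3) against control 8 rose and 1 fell, in double against control 7 rose and 1 fell, and in double against Sf3b1 K700E libraries 8 rose and 3 fell, by edgeR's test. Over all tested genes 18.4% were higher and 20.3% lower in inv(3) against control, 20.8% higher and 20.4% lower in double against control, and 25.7% higher and 23.5% lower in double against Sf3b1 K700E libraries. In double against inv(3) libraries 1 rose and 2 fell, and with Sf3b1 K700E alone 2 rose and 1 fell, where 13.4% of all tested genes were higher and 9.13% lower in double against inv(3) and 3.94% higher and 4.9% lower with Sf3b1 K700E alone. With Sf3b1 K700E alone none of the 16 passed without Sf3b1 K700E replicate 2 and 1 passed without control replicate 2. Over all tested genes 168 of 13860 and 214 of 13893 were called in these fits. Cdkn1c, the CDK inhibitor p57, which is also on the list of quiescent stem cell markers, had 5.59, 6.37 and 5.93 CPM in double, 4.70, 14.2 and 5.99 CPM in inv(3), 0.555, 0.645 and 0.811 CPM in Sf3b1 K700E and 0.472, 0.353 and 0.480 CPM in control libraries. Its log2 change was 3.77 ± 0.40 in double against control (adjusted p = 2.2e-05) and 4.25 ± 0.40 in inv(3) against control (adjusted p = 1.5e-05). Cdkn2c, an inhibitor of CDK4 and CDK6, had 54.4, 41.0 and 46.6 CPM in double, 56.1, 48.0 and 45.8 CPM in inv(3), 18.9, 18.7 and 18.8 CPM in Sf3b1 K700E and 28.3, 26.7 and 28.4 CPM in control libraries. It rose with inv(3) and in double libraries against control, by 0.85 and 0.77, and its log2 change with Sf3b1 K700E alone was -0.56 ± 0.097 (adjusted p = 0.0079). Tob1, an antiproliferative factor, had 14.0, 9.64 and 12.2 CPM in double, 8.99, 8.31 and 8.11 CPM in inv(3), 5.20, 5.42 and 4.95 CPM in Sf3b1 K700E and 4.28, 4.93 and 5.26 CPM in control libraries, with a log2 change of 0.50 ± 0.13 in double against inv(3) (adjusted p = 0.017). Cdkn1a, the p21 gene, rose with Sf3b1 K700E alone by 0.69 ± 0.16 (adjusted p = 0.023) and fell by 0.71 ± 0.16 (adjusted p = 0.0032) in double against Sf3b1 K700E libraries. Btg1, another antiproliferative factor, rose by 0.48 with inv(3) alone and by 0.59 in double against Sf3b1 K700E libraries. Gadd45g, a stress-induced gene, fell in inv(3) against control, in double against control and in double against Sf3b1 K700E libraries, with log2 changes of -1.30, -1.22 and -1.22. Cdkn2d and Gadd45b fell in double against inv(3) libraries, with -0.51 and -0.67. Ccng1, cyclin G, rose by 0.19 with Sf3b1 K700E alone and changed by -0.12 in double against Sf3b1 K700E libraries. Among these calls, that of Tob1 in double against inv(3), that of Cdkn1a with Sf3b1 K700E alone and that of Ccng1 in double against Sf3b1 K700E libraries were each lost in 4 of 21 alternatives, and that of Ccng1 with Sf3b1 K700E alone in 3. Cdkn2c with Sf3b1 K700E alone did not pass without Sf3b1 K700E replicate 2 (adjusted p = 0.054).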
